A study of Rattus norvegicus with 24 samples.

Results

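The high salt and fat diet was compared with the normal diet at 2 weeks in kidneys of male SHR-SP rats, the stroke-prone line of the spontaneously hypertensive rat, in which salt loading is known to aggravate renal and vascular injury. Rats of the first group ate chow with 24.5% fat and drank water with 1% NaCl from 11 weeks of age, and the normal-diet group ate powdered chow and drank plain water from the same age. Both agents were given at once to the animals whose organs are called salt and fat kidneys, and the comparison does not separate salt from fat. Each group held 6 animals with 1 array each, which makes 12 of the 24 arrays of the study. The other 12 arrays come from animals kept for 8 weeks on either diet, and are used here for the estimate of spread and for 1 comparison of the times. RNA came from pulverised whole kidneys, so every value averages over cortex, medulla and whatever tissue was attached. Fewer cells of a type and less RNA per cell therefore cannot be told apart.

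Signals are MAS5 values, the authors' summary of the probes of each Affymetrix probe set on a linear scale. A difference is that of mean log2(signal + 7.21), high salt and fat minus normal, ± SE. This scale understates the change of dim probe sets. A gene is said to have risen or fallen where its brightest probe set had an adjusted p under 0.05 in limma over all 10208 probe sets tested. For each gene the signals are given as the lowest to the highest of the 6 arrays with their median.

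The nephron filters plasma at the glomerulus and recovers most of the filtrate in the proximal tubule, where sodium-coupled carriers take up phosphate, glucose, amino acids and bicarbonate. The thick ascending limb reabsorbs sodium chloride without water through the cotransporter Slc12a1 and so makes the medulla salty. Vasopressin then sets how much water the collecting duct recovers through aquaporins. Cells of the salty medulla hold sorbitol, inositol, taurine and betaine as organic osmolytes, and the transcription factor NFAT5 drives the genes that make or import them.

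The kidney label was checked against Umod. Umod, the major urinary protein of the thick ascending limb, had signals of 4907 to 6782 (median 5664) in the salt and fat kidneys and 5168 to 6057 (median 5856) in the normal-diet kidneys. The arrays of each diet correlated with each other at 0.958 to 0.981 on the log2 scale. The first principal component of the 12 arrays held 28.2% of the variance and separated the diets, with scores of 3.64 to 24.01 in the salt and fat kidneys and -15.95 to -8.49 in the normal-diet kidneys. Array 2 of the high salt and fat group lay farthest out. Its actin 3' to 5' ratio, a measure of RNA integrity, was 2.27, against 1.31 to 1.57 on the other 5 arrays of its group.

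Measures of RNA and array quality moved with the diet. The GAPDH 3' to 5' ratio averaged 1.22 ± 0.09 in the salt and fat kidneys and 1.09 ± 0.07 in the normal-diet kidneys (SD, n = 6 each), and was above the normal-diet median on 6 of 6 arrays (exact permutation test, two-sided p = 0.0152, adjusted p = 0.0227 over 3 measures). The spike-in controls, BioB, BioC, BioD and Cre, are transcripts added in fixed amounts and do not measure the integrity of the kidney RNA. Their level was lower in the salt and fat kidneys by 0.30 on the log2 scale, on 6 of 6 arrays (exact permutation p = 0.00216, the smallest that 924 splits allow, adjusted p = 0.00649). Actin ratios averaged 1.54 ± 0.37 in the salt and fat kidneys and 1.31 ± 0.12 in the normal-diet kidneys (exact permutation p = 0.134, n = 6 each). With the GAPDH ratio as a covariate 314 probe sets were called, and with the spike-in level 482 were called, against 892 without a covariate. Of 173 called genes selected by rule, not all of which are described here, 81 kept their call with the first covariate and 93 with the second. The part of RNA quality or of the spike-in level in single results was not tested further.

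After 2 weeks 892 of 10208 probe sets had changed, which is 8.74%. Higher in the salt and fat kidneys were 464 (4.55%) and lower were 428 (4.19%). By gene, with 1 probe set each, 646 of 7491 had changed (8.62%), 377 rising (5.03%) and 269 falling (3.59%), and the median difference of all genes was 0.03. The groups did not overlap for 219 genes that were higher (2.92%) and 148 that were lower (1.98%). Every list count below is to be read beside these shares of all genes. Changes were mostly small: 17 genes rose and 12 fell by at least 2-fold on this scale. Without array 2 of the high salt and fat group 279 probe sets were lower in place of 428.

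The largest rise of any gene tested was that of Psca, a surface antigen of the urothelium that lines the pelvis and bladder. Its signals were 53.2 to 213 (median 166) in the salt and fat kidneys and 4.5 to 26.2 (median 6.8) in the normal-diet kidneys. The difference was 3.24 ± 0.27 (limma adjusted p = 9.93e-09). To be tested, a probe set had to pass the 40th percentile of signal (44.48 to 54.5) on at least 6 arrays. All normal-diet signals of Psca lay below that level, also at 8 weeks (5.3 to 17.1). It was thus tested only because of its high salt and fat arrays, and the p-value is no separate support for the rise. The other urothelial markers tested, all keratins, did not move with it: Krt5, Krt7 and Krt19 differed by -0.26, 0.01 and 0.23 and none passed the test. The uroplakins of the same list were not found on the array by symbol. Krt13, Krt14, Krt15, Krt20 and Tp63 were too dim to be tested.

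Genes of water recovery in the collecting duct were higher. Of 17 principal cell genes tested, 6 rose and 1 fell, against 5.03% and 3.59% of all genes, and the list's median difference was 0.18, against 0.03 for all genes. Of the 5 aquaporins tested, Aqp2, Aqp3 and Aqp4 rose, and their groups did not overlap. Aqp2, the luminal water channel that vasopressin brings to the membrane, had signals of 1171 to 1479 (median 1318) in the salt and fat kidneys and 447 to 841 (median 583) in the normal-diet kidneys. Every high salt and fat array lay above every normal-diet array (difference 1.16 ± 0.14, adjusted p = 3.76e-06).

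The basolateral water channels Aqp3 and Aqp4, through which water leaves the same cells, moved the same way. Aqp4 had signals of 102 to 145 (median 129.7) in the salt and fat kidneys and 21.6 to 37.6 (median 26.0) in the normal-diet kidneys (difference 1.97 ± 0.16, adjusted p = 9.93e-09), the largest difference of any principal cell gene tested. These normal-diet signals, too, lay below the level needed for testing (44.48 to 54.5). A dimmer Aqp4 probe set was also higher, by 0.71 ± 0.21 (adjusted p = 0.0301), but lost the call without any 1 of high salt and fat arrays 1, 5 and 6 or normal-diet arrays 1, 3 and 5 (0.64 to 0.78 over all 24 arrays left out in turn). Aqp3 had signals of 459 to 549.9 (median 525.9) and 265 to 377 (median 302) in the same groups (difference 0.73 ± 0.08, adjusted p = 3.15e-06). Avpr2, the V2 receptor through which vasopressin raises cyclic AMP, had 119.5 to 219 (median 161) in the salt and fat kidneys and 80.9 to 127 (median 111) in the normal-diet kidneys, with overlap between the groups (difference 0.54 ± 0.13, adjusted p = 0.0101). A second Avpr2 probe set differed by -0.33 and did not pass. Aqp1, the water channel of proximal tubule and thin limb, had 2901 to 3953 (median 3605) in the salt and fat kidneys and 3341 to 4497 (median 4138) in the normal-diet kidneys and did not pass (difference -0.18 ± 0.10, adjusted p = 0.291, and 0.028 after quantile normalization), whereas its second probe set fell by 0.50 on the log2 scale (adjusted p = 0.00131).

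**Figure D1:**
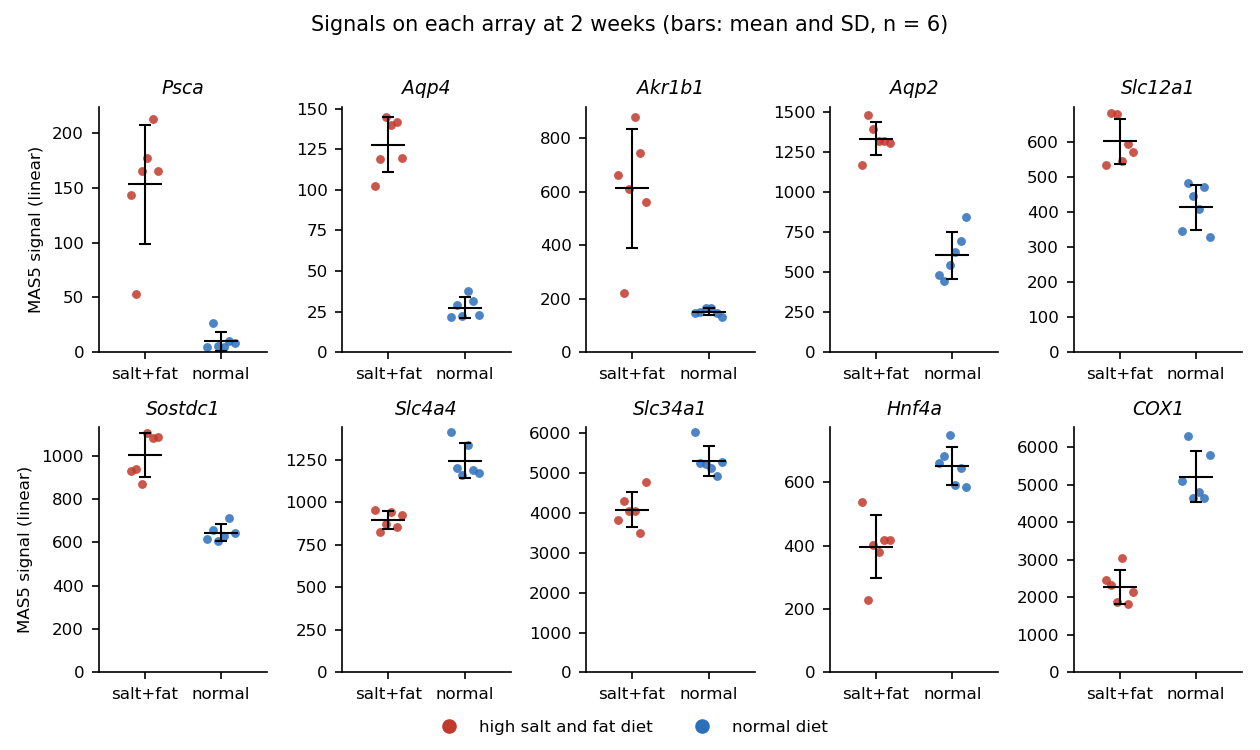
MAS5 signals (linear axes from 0) of 10 genes on the 12 arrays at 2 weeks, with the high salt and fat diet left and the normal diet right in each panel, each point an array and each bar the mean with its SD (n = 6). Psca, Aqp4, Akr1b1, Aqp2, Slc12a1 and Sostdc1 were higher and Slc4a4, Slc34a1, Hnf4a and COX1 lower in the salt and fat kidneys, with no overlap between the groups in any of the 10 panels.

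Genes of sodium entry and exit in the collecting duct gave a mixed picture. Fxyd4, the regulator of the sodium pump in collecting duct known as CHIF, had signals of 150.1 to 319.6 (median 239.8) in the salt and fat kidneys and 95.5 to 151 (median 103) in the normal-diet kidneys, and rose by 1.02 ± 0.14 (adjusted p = 2.16e-05). Only the lowest high salt and fat array reached down to the highest normal-diet array. The pump subunit Atp1b3 and the regulator Fxyd6 rose by 0.35 and 0.44, and lost the call without high salt and fat array 5 or normal-diet array 3 (0.31 to 0.32) and without high salt and fat array 5 or normal-diet arrays 1, 3, 4 or 6 (0.40 to 0.43). The epithelial sodium channel did not move as 1 unit. Its beta subunit Scnn1b fell by 0.26 on the log2 scale, with 201 to 268 (median 244) in the salt and fat kidneys and 264 to 316 (median 288) in the normal-diet kidneys (adjusted p = 0.03), a call lost without high salt and fat array 5 or normal-diet arrays 1, 3 or 4 (-0.26 to -0.21). The alpha and gamma subunits Scnn1a and Scnn1g differed by 0.21 ± 0.11 and 0.18 ± 0.09 and did not pass, and a second Scnn1g probe set differed by -0.14. Nedd4l, the ubiquitin ligase that removes the channel from the membrane, rose by 0.37, a call lost without high salt and fat arrays 2, 3 or 4 or normal-diet arrays 2, 5 or 6 (0.30 to 0.36).

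Genes of the mineralocorticoid pathway did not pass the test. Of 14 genes of the angiotensin and mineralocorticoid list 0 rose and 0 fell in limma, and 3 had an unadjusted p under 0.05. The receptor Nr3c2 differed by -0.01 ± 0.15, the glucocorticoid-inactivating enzyme Hsd11b2 by -0.17 ± 0.08 and the aldosterone-induced kinase Sgk1 by -0.52 ± 0.22. Sgk1 varied widely within each diet, with signals of 655 to 1535 (median 939) in the salt and fat kidneys and 1101 to 1773 (median 1421) in the normal-diet kidneys. Intercalated cells, which handle acid, had 1 of 8 genes higher. This was Slc4a1, the anion exchanger of red cells and of type A intercalated cells, with 459 to 616 (median 567) in the salt and fat kidneys and 321 to 441 (median 418) in the normal-diet kidneys (difference 0.44 ± 0.10, adjusted p = 0.0052). Red cell markers Hbb and Alas2 differed by -0.11 and 0.16, neither past the test, and a second Slc4a1 probe set differed by 0.19 without passing.

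Genes of the osmolyte programme rose together, as far as they were measured. Of 20 listed, 15 were found on the array by symbol. The betaine and inositol importers Slc6a12 and Slc5a3 were not found. Of 14 tested members 8 rose and 1 fell, against 5.03% and 3.59% of all genes, and the median difference was 0.52. The groups did not overlap for 6 of those that rose, against 2.92% of all genes higher without overlap. The 8 kept their call with each array left out in turn, as did the 1 that fell. Akr1b1, the aldose reductase that makes sorbitol from glucose, had signals of 221 to 880.0 (median 636) in the salt and fat kidneys and 133 to 167 (median 149) in the normal-diet kidneys. Array 2 was the lowest of its group, and still above every normal-diet array (difference 1.86 ± 0.22, adjusted p = 3.76e-06). Sord, which turns sorbitol into fructose, fell, with 1173 to 1388 (median 1258) in the salt and fat kidneys and 1586 to 1856 (median 1635) in the normal-diet kidneys (difference -0.40 ± 0.08, adjusted p = 0.0013).

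Inositol and taurine genes moved with it. Isyna1, which makes inositol phosphate from glucose phosphate, had signals of 73.2 to 214 (median 105) in the salt and fat kidneys and 40.6 to 61.9 (median 43.6) in the normal-diet kidneys (difference 1.21 ± 0.21, adjusted p = 0.000493). Impa2, which frees inositol from its phosphate, had 177 to 194 (median 184) and 84.5 to 153 (median 98.8) in the same groups (difference 0.78 ± 0.15, adjusted p = 0.0013), with all 6 high salt and fat arrays within a narrow range. The taurine transporter Slc6a6 had 401 to 646 (median 496) in the salt and fat kidneys and 287 to 377 (median 352) in the normal-diet kidneys (difference 0.54 ± 0.12, adjusted p = 0.00476), and its second probe set differed by 0.15 without passing. The amino acid transporter Slc38a2 rose by 0.59 ± 0.14. The small heat shock protein Hspb1 rose by 0.50 ± 0.13 and the calcium-binding protein S100a4 by 1.19 ± 0.23. Nfat5 itself, named here after its values were seen, had 462 to 779 (median 547) in the salt and fat kidneys and 324 to 493.4 (median 411) in the normal-diet kidneys (difference 0.47 ± 0.11, adjusted p = 0.00525), while its second probe set differed by 0.11 and did not pass. With the GAPDH ratio, the spike-in level or the fat index as a covariate 5, 5 and 3 of the 14 rose. The fat index and its limits are described with the fat genes.

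The urea transporter Slc14a2, another NFAT5 target, gave probe sets that disagree. The brightest had signals of 54.3 to 117 (median 74.6) in the salt and fat kidneys and 72.2 to 90.8 (median 85.3) in the normal-diet kidneys and did not pass (difference -0.16 ± 0.15). A second had 44.6 to 124 (median 60.55) in the salt and fat kidneys and 3.3 to 29.3 (median 19.95) in the normal-diet kidneys and rose by 1.63 ± 0.35 (adjusted p = 0.00383). Another rose by 0.99 ± 0.20 (adjusted p = 0.00244). Both kept the call with each array left out. Their normal-diet signals at 2 weeks, at most 29.3 and 35.8, lay below the level needed for testing (44.48 to 54.5). The gene is known to give several transcripts, and which of them each probe set reads was not tested.

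The 250 bases upstream of the start sites were read for NFAT5's core motif, TGGAAA, on either strand, because these genes moved together. Windows from the RefSeq promoter table (build GRCr8) were found for 6280 of the 7491 genes tested. The motif stood in 14.0% of all windows, in 14.6% of those of genes that rose and in 13.0% of those that fell. Among the 9 osmolyte and aquaporin genes that rose and had a window, 4 held it (44.4%): Aqp4, Slc6a6, Impa2 and Hspb1. The list was chosen with results known, and the match describes letters, not binding. The share among all tested osmolyte and aquaporin genes was not counted, so the 44.4% cannot be tied to rising. No window was found for Akr1b1. Capitals mark the motif or its complement in 3 of them, with Aqp4 at chr18:6798843-6799092 on the reverse strand, Slc6a6 at chr4:125752252-125752501 on the forward strand and Impa2 at chr18:63103863-63104112 on the forward strand.
Aqp4: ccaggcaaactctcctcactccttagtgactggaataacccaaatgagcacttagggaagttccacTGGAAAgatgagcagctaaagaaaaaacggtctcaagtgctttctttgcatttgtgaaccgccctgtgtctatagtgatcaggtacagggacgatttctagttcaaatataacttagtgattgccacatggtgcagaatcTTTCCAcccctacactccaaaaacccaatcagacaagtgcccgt
Slc6a6: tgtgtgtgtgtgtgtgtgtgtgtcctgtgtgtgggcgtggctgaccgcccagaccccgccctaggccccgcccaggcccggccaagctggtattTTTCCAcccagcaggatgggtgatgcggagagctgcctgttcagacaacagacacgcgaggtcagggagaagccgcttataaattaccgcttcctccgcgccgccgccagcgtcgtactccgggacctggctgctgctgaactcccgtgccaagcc
Impa2: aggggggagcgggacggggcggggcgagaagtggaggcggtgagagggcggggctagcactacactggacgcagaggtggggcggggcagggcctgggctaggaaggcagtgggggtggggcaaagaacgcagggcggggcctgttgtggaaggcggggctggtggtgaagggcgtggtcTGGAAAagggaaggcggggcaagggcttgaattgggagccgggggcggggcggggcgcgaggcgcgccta

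Genes of the loop of Henle were higher as well. In the thick ascending limb 6 of 13 genes rose and 0 fell, against 5.03% and 3.59% of all genes. The median difference was 0.37, and 12 of 13 differences were above 0. Slc12a1, the cotransporter NKCC2 that loop diuretics block, had signals of 533 to 681 (median 582) in the salt and fat kidneys and 329 to 481 (median 426) in the normal-diet kidneys, with no overlap (difference 0.54 ± 0.11, adjusted p = 0.00282). Sostdc1, an inhibitor of BMP and Wnt signals made in the distal nephron, had 870.0 to 1107 (median 1012) and 608 to 714 (median 638) in the same groups (difference 0.63 ± 0.09, adjusted p = 4.94e-05). Ppp1r1a, a cyclic AMP-regulated inhibitor of phosphatase 1, rose by 0.57 ± 0.11.

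The claudins of this segment form its paracellular pores. Cldn10, which passes sodium, had 919 to 1055 (median 998) in the salt and fat kidneys and 687 to 869 (median 727) in the normal-diet kidneys (difference 0.41 ± 0.09, adjusted p = 0.00274). Cldn19, which with Cldn16 passes calcium and magnesium, had 200.4 to 269 (median 218) and 123 to 189 (median 149.7) in the same groups (difference 0.57 ± 0.13, adjusted p = 0.0058). Cldn16 rose by 0.52, a call lost without high salt and fat arrays 2, 3 or 5 or normal-diet arrays 1, 3 or 6 (0.40 to 0.52). Umod differed by -0.02 ± 0.08 and did not pass, but was higher by 0.22 after quantile normalization (limma adjusted p = 0.026), and neither did Kcnj1, the potassium channel ROMK, at 0.37 ± 0.14. With the fat index as a covariate 1 of the 13 rose, with the GAPDH ratio 3, and with the spike-in level 5.

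Of 5 thin limb genes 3 rose, against 5.03% of all genes. Besides Akr1b1 these were Tspan8, a tetraspanin of the cell surface, with 240.1 to 331 (median 279) in the salt and fat kidneys and 126 to 179 (median 156) in the normal-diet kidneys (difference 0.82 ± 0.16, adjusted p = 0.0012), and the Notch ligand Jag1, which rose by 0.81, a call lost without high salt and fat arrays 3 or 5 or normal-diet array 1 (0.63 to 0.77). The distal convoluted and connecting tubule moved little. Of its 14 genes 1 rose and 1 fell, with a median of 0.04. The thiazide-sensitive cotransporter Slc12a3 had 511 to 831 (median 622) in the salt and fat kidneys and 468 to 701 (median 565) in the normal-diet kidneys and did not pass (difference 0.14 ± 0.19). The kallikrein Klk1 fell by 0.32 on the log2 scale, a call lost without high salt and fat arrays 3, 4 or 5 or normal-diet arrays 3 or 4 (-0.31 to -0.28), and the monocarboxylate carrier Slc16a7 rose by 0.35, a call lost without high salt and fat arrays 1, 5 or 6 or normal-diet arrays 1, 3, 5 or 6 (0.27 to 0.35). In the podocyte, Cdkn1c, a cell cycle inhibitor of the mature cell, was the only one of 11 genes tested to rise, by 0.40 ± 0.10, and 0 fell. Nephrin, Nphs1, differed by -0.26 ± 0.13 without passing.

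**Figure D2:**
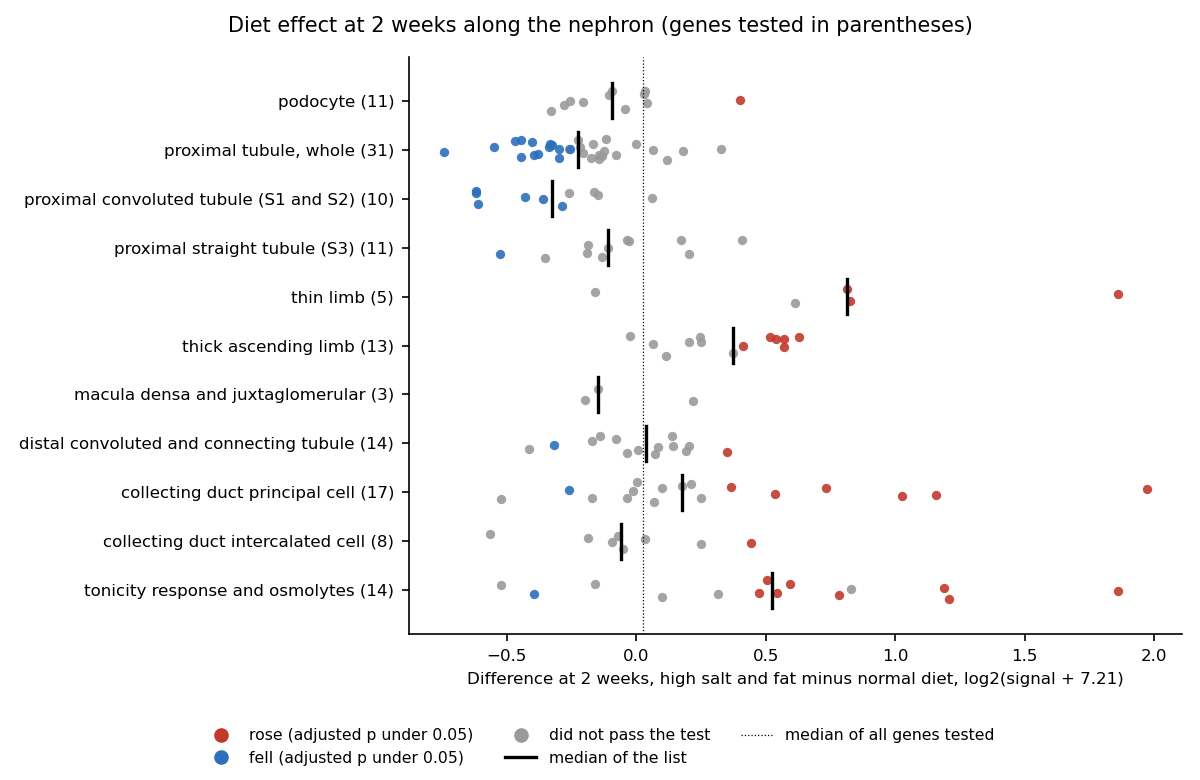
Differences at 2 weeks (horizontal axis, high salt and fat minus normal, log2(signal + 7.21)) of the tested genes of 10 nephron lists and the osmolyte list (rows), with points coloured by the test and black lines at the list medians. Proximal lists lie mostly below the median of all genes (0.03), and the thin limb, thick ascending limb and osmolyte lists mostly above it.

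Genes of the proximal tubule were lower. Of 31 genes of the whole proximal tubule 0 rose and 14 fell, against 5.03% and 3.59% of all genes. Their median difference was -0.22, and the groups did not overlap for 12 that were lower. Of 10 genes of the convoluted part 6 fell (median -0.33), and of 11 genes of the straight part 1 fell (median -0.11). With a covariate, 1 of the 10 fell for the GAPDH ratio, 1 for the spike-in level and 0 for the fat index. The single falls were modest, 0.26 to 0.74 on the log2 scale. The largest was that of Hnf4a, a nuclear receptor that drives proximal tubule genes, with signals of 229 to 537 (median 408) in the salt and fat kidneys and 584 to 747 (median 652) in the normal-diet kidneys (difference -0.74 ± 0.13, adjusted p = 0.000558). Array 2 was the lowest, and the other 5 also lay below every normal-diet array.

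Carriers of the basolateral and luminal membranes were among those that fell. Slc4a4, the cotransporter that returns bicarbonate to the blood, had 827 to 953 (median 899.7) in the salt and fat kidneys and 1159 to 1413 (median 1196) in the normal-diet kidneys (difference -0.47 ± 0.07, adjusted p = 8.17e-05). Slc34a1, the main phosphate carrier of the brush border, had 3505 to 4775 (median 4046) and 4909 to 6018 (median 5227) in the same groups (difference -0.38 ± 0.08, adjusted p = 0.00361), and a second probe set differed by -0.26 without passing. Slc13a1, the sulphate carrier, had 282 to 524 (median 452) in the salt and fat kidneys and 553 to 713 (median 619.7) in the normal-diet kidneys (difference -0.55 ± 0.11). Slc22a8, an organic anion transporter, had 1728 to 2226 (median 1967) and 2289.7 to 2751 (median 2665) in the same groups (difference -0.40 ± 0.08). The groups did not overlap for any of these carriers. Slc9a3, the sodium and hydrogen exchanger of the brush border, did not fall with them: it had 367 to 446 (median 415) in the salt and fat kidneys and 285 to 431 (median 364) in the normal-diet kidneys (difference 0.18 ± 0.08, adjusted p = 0.192).

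Carriers for glucose and amino acid recovery were lower in part. The glucose carriers Slc5a2 and Slc5a1 fell by 0.43 and 0.52 on the log2 scale, calls lost without high salt and fat arrays 2, 3, 5 or 6 or normal-diet arrays 1, 3 or 6 (-0.44 to -0.35) and without high salt and fat array 2 or normal-diet arrays 2, 3 or 6 (-0.52 to -0.40). Slc7a9, the luminal carrier of cystine and basic amino acids, had 668 to 834 (median 739) in the salt and fat kidneys and 863 to 1128 (median 912) in the normal-diet kidneys (difference -0.36 ± 0.08, adjusted p = 0.00456). Slc7a7, its basolateral counterpart, had 419.8 to 763 (median 621) and 654 to 1239 (median 932) in the same groups with overlap (difference -0.61 ± 0.15, adjusted p = 0.0121). Slc7a8 fell by 0.62, a call lost without high salt and fat array 2 (-0.56). The dicarboxylate carrier Slc13a3 and the creatine carrier Slc16a12 fell by 0.29 and 0.62 on the log2 scale, but a second Slc16a12 probe set differed by -0.17 and did not pass. Lrp2, megalin, the receptor that takes up filtered proteins, fell by 0.26, a call lost without high salt and fat arrays 1 or 5 or normal-diet array 1 (-0.23).

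Enzymes typical of the proximal cell followed. Ass1, which makes argininosuccinate for arginine synthesis, had 2555 to 3615 (median 3076) in the salt and fat kidneys and 3964 to 4475 (median 4119) in the normal-diet kidneys (difference -0.44 ± 0.08, adjusted p = 0.000851). Fbp1, of gluconeogenesis, had 3421 to 4495 (median 3677) and 4506 to 5521 (median 5015) in the same groups (difference -0.40 ± 0.08, adjusted p = 0.00274). Miox, which breaks down inositol, had 3813 to 4901 (median 4056) in the salt and fat kidneys and 5028 to 5566 (median 5193) in the normal-diet kidneys, again without overlap (difference -0.33 ± 0.07, adjusted p = 0.00328). Cltrn, collectrin, an amino acid transporter partner, fell by 0.33, Gatm, of creatine synthesis, by 0.44, Fmo1 by 0.34, Napsa by 0.30 and the fatty acid transporter Slc27a2 by 0.30 on the log2 scale. Not all members fell: Pck1, Cubn, Slc22a6, Anpep and Mme differed by -0.26, -0.21, -0.22, -0.08 and 0.07 without passing. Of the 31 genes 11 fell with the GAPDH ratio as a covariate, 6 with the spike-in level, 6 with the fat index and 9 after quantile normalization. Quantile normalization ended the calls of Miox (difference then -0.08), Slc34a1 (-0.15), Slc27a2 (-0.15), Napsa (-0.17) and Lrp2 (-0.11). It also ended that of Slc13a3 (-0.15), of the convoluted part.

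The same windows were read for the core of the HNF1 motif, GTTAAT, a factor of the proximal tubule. It stood, on either strand, in 4.06% of all windows of 250 bases and in 6.05% of those of genes that fell. Among members of the 3 proximal lists it stood in 9 of 47 windows of tested members (19.1%) and in 4 of 20 of those that fell, which are Slc34a1, Slc22a8, Cltrn and Miox. A longer HNF4 motif, CAAAGTCCA, stood in 0.303% of all windows, in 3 of the 47 (6.38%; Agxt2, Pdzk1 and Slc3a1) and in 0 of the 20. Capitals mark the core or its complement in 3 members, with Slc34a1 at chr17:9238984-9239233 on the reverse strand, Slc22a8 at chr1:214927034-214927283 on the forward strand and Miox at chr7:122284410-122284659 on the forward strand.
Slc34a1: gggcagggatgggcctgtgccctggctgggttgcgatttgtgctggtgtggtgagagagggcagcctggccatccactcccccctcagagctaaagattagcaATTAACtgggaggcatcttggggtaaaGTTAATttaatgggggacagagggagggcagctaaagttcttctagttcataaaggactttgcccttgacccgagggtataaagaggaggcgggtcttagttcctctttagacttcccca
Slc22a8: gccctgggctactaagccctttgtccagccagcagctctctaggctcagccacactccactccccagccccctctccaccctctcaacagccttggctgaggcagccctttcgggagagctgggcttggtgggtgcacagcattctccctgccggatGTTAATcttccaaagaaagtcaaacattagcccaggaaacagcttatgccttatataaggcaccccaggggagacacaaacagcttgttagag
Miox: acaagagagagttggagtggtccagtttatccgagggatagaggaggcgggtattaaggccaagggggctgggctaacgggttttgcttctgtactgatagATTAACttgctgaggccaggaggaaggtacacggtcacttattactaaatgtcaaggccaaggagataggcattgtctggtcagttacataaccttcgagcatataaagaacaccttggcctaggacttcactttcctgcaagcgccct

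Across all SLC and SLCO transporter genes 18 of 183 rose (9.84%) and 19 fell (10.4%), against 5.03% and 3.59% of all genes, with a median of -0.02. The count that rose was 11 without high salt and fat array 2 and 10 without array 5. With the GAPDH ratio as a covariate 5 rose and 7 fell, with the spike-in level 11 and 11, and with the fat index 4 and 2. Among those outside the segment lists, Slc4a7, a sodium bicarbonate cotransporter, had signals of 81.6 to 180.1 (median 124) in the salt and fat kidneys and 29.9 to 60.8 (median 38.2) in the normal-diet kidneys (difference 1.45 ± 0.20, adjusted p = 3.63e-05). Slco4a1, an organic anion carrier for thyroid hormones, had 58.0 to 210.3 (median 137) and 19.1 to 50.2 (median 43.3) in the same groups (difference 1.49 ± 0.21, adjusted p = 4.25e-05), and its second probe set rose by 0.95. Both were without overlap. The phosphate carrier Slc20a1 rose by 0.50 ± 0.11 while Slc34a1 fell. The glutamine carrier Slc38a1 rose by 0.59 ± 0.13, the choline transporter Slc44a1 by 0.39 ± 0.09 and the ATP-driven exporter Abcc5 by 0.58 ± 0.12. A second probe set of Slc38a1 did not pass, at 0.09, nor did 2 others of Slc44a1, at 0.29 and 0.11.

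Among those that fell, the iron exporter Slc40a1, ferroportin, had 108 to 185 (median 123) in the salt and fat kidneys and 172 to 209.6 (median 188) in the normal-diet kidneys (difference -0.51 ± 0.10, adjusted p = 0.00246). Slc16a1, which carries lactate, had 251 to 801 (median 450.2) and 634 to 783 (median 729) in the same groups, with wide spread in the salt and fat kidneys (difference -0.75 ± 0.19, adjusted p = 0.0138). Slc22a18, a relative of the organic cation transporters, fell by 0.32 on the log2 scale. Of 5 nucleoside carriers, 3 sodium and hydrogen exchangers and 3 SLC26 exchangers 0 passed the test in limma, and 3, 1 and 0 had an unadjusted p under 0.05. The 17 tested vacuolar proton pump subunits had 1 gene past the test, Atp6v1b2, which fell by 0.32 and lost the call without high salt and fat arrays 1, 2, 5 or 6 or normal-diet arrays 1, 3, 5 or 6 (-0.34 to -0.25). A second Atp6v1b2 probe set also fell, with a difference of -0.47.

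A few ion channel genes were lower. Of 24 potassium channel genes 0 rose and 3 fell (median -0.24), against 5.03% and 3.59% of all genes. With the GAPDH ratio, the spike-in level or the fat index as a covariate 2, 2 and 2 of the 24 fell. Kcnj15, an inward rectifier of the basolateral membrane, had 844 to 1235 (median 1075) in the salt and fat kidneys and 1296 to 1591 (median 1409) in the normal-diet kidneys (difference -0.43 ± 0.08, adjusted p = 0.000774). Kcnj16, another inward rectifier of that membrane, had 947 to 1185 (median 995) and 1221 to 1390.4 (median 1355) in the same groups (difference -0.36 ± 0.09, adjusted p = 0.00792). The second probe sets of both fell too, with differences of -1.36 for Kcnj15 and -0.47 for Kcnj16. Kcnh3 fell by 0.46, a call lost without high salt and fat arrays 2 or 5 (-0.40 to -0.36). Of 10 chloride channel genes 3 fell, and 1, 2 and 1 fell with the same covariates. Clcn5, the endosomal exchanger lost in Dent disease, had 21.2 to 47.2 (median 39.3) in the salt and fat kidneys and 55.3 to 74.3 (median 70.0) in the normal-diet kidneys (difference -0.79 ± 0.16, adjusted p = 0.00209). Its relative Clcn4 fell by 0.76, and Clic4 by 0.24, a call lost without high salt and fat arrays 1, 2, 3, 5 or 6 or normal-diet arrays 1, 2, 3, 4 or 6 (-0.26 to -0.20), while 2 other Clic4 probe sets also fell, with differences of -0.49 and -1.05. The calcium pump Atp2b4 fell by 0.64. Cldn2, the cation pore of the proximal tubule, fell by 0.29, a call lost without high salt and fat arrays 2 or 6 or normal-diet arrays 2 or 3 (-0.28 to -0.25).

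**Figure D3:**
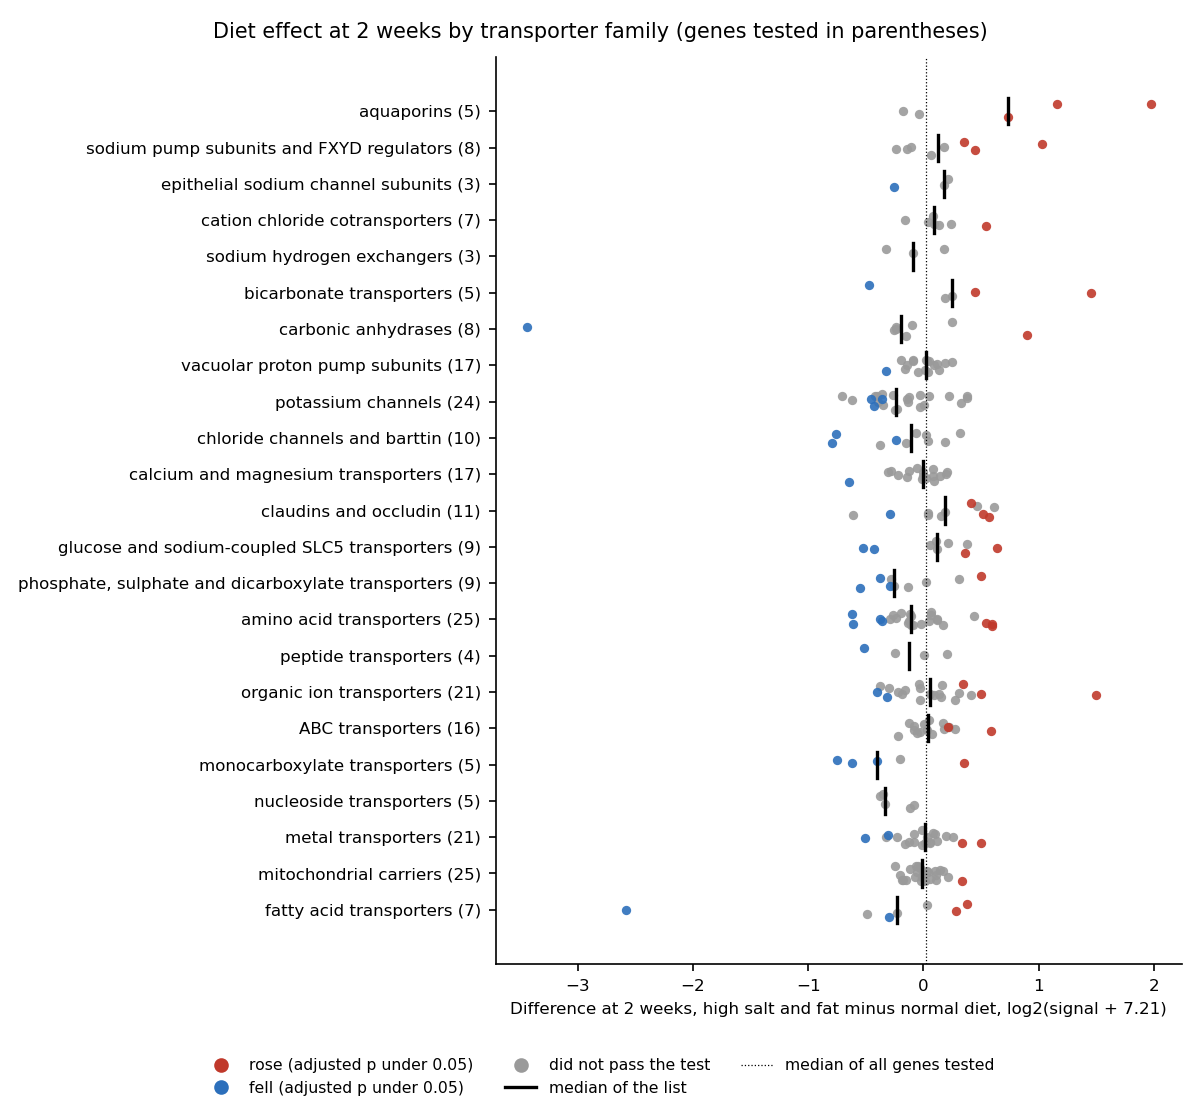
Differences at 2 weeks (horizontal axis, high salt and fat minus normal, log2(signal + 7.21)) of the tested genes of 23 transporter, channel and claudin families (rows), with points coloured by the test and black lines at family medians. Aquaporins stand highest by median (0.73), and the farthest points on the left are Car3 among carbonic anhydrases and Fabp4 among fatty acid transporters, both of them also markers of fat.

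Metabolic enzymes changed in selected steps. Of 42 genes of fatty acid oxidation and PPAR alpha 3 rose and 13 fell (median -0.13), against 5.03% and 3.59% of all genes. Vnn1, a pantetheinase induced by PPAR alpha, had 208 to 398 (median 328) in the salt and fat kidneys and 418 to 615 (median 519.8) in the normal-diet kidneys, just without overlap (difference -0.75 ± 0.12, adjusted p = 0.000151). Ehhadh, of peroxisomal oxidation, had 430.4 to 711 (median 529.6) and 804 to 968 (median 858) in the same groups (difference -0.67 ± 0.12), and the omega hydroxylases Cyp4a1 and Cyp4a3 fell by 0.53 and 0.43 on the log2 scale. Against these, Cpt1b, the muscle and fat form of the enzyme that admits fatty acids to mitochondria, had 196 to 269.9 (median 215) in the salt and fat kidneys and 99.0 to 163 (median 127) in the normal-diet kidneys (difference 0.78 ± 0.12, adjusted p = 0.000159). Without high salt and fat array 2 the count that rose was 1, and with the fat index as a covariate 2 of the 42 fell.

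Of 40 genes of amino acid metabolism 0 rose and 9 fell (median -0.16), against 5.03% and 3.59% of all genes. Acmsd, which steers tryptophan away from NAD synthesis, had 327 to 607 (median 574) in the salt and fat kidneys and 866 to 1177 (median 931) in the normal-diet kidneys (difference -0.88 ± 0.15, adjusted p = 0.000337). Hpd, of tyrosine breakdown, had 1583 to 1833 (median 1740.5) and 2265 to 2857 (median 2517) in the same groups (difference -0.53 ± 0.07, adjusted p = 4.66e-05). Ddc, which makes dopamine in the proximal tubule, fell by 0.61 (a second probe set differed by -0.33 without passing) and Psat1, of serine synthesis, by 0.42 on the log2 scale. Of 30 genes of drug metabolism 2 rose and 7 fell. Cyp2c23, the main epoxygenase of arachidonic acid in rat kidney, had 2176 to 3185 (median 2560.0) in the salt and fat kidneys and 3673 to 3952 (median 3783) in the normal-diet kidneys (difference -0.55 ± 0.08, adjusted p = 5.01e-05), with no overlap. Cyp2e1 fell by 0.52. Gstp1, a glutathione transferase, rose by 0.42 ± 0.08. Of 21 genes of glycolysis and gluconeogenesis 2 rose and 4 fell, and 2 fell without high salt and fat array 2 or without array 3. Besides Fbp1, those that fell were Eno1 (-0.25), Pc (-0.38) and Pfkfb2 (-0.60), and Pklr rose by 0.36. Eno1 lost the call after quantile normalization (-0.04). Pc lost it without high salt and fat arrays 2, 3 or 6 or normal-diet arrays 1, 3 or 6 (-0.38 to -0.30). Pfkfb2 lost it without high salt and fat arrays 2 or 3 or normal-diet array 2 (-0.55 to -0.48). Pklr lost it without high salt and fat arrays 2, 3, 5 or 6 or normal-diet arrays 1, 2, 3, 5 or 6 (0.29 to 0.36). Pfkp, a form of phosphofructokinase, had 150.4 to 233 (median 177) in the salt and fat kidneys and 95.8 to 128 (median 106) in the normal-diet kidneys (difference 0.72 ± 0.12, adjusted p = 0.000387).

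Of 2 mitochondrially encoded genes 1 fell. This was COX1, a subunit of cytochrome oxidase, which had 1818 to 3040.2 (median 2235) in the salt and fat kidneys and 4637 to 6312 (median 4963) in the normal-diet kidneys, with every high salt and fat array below every normal-diet array (difference -1.20 ± 0.16, adjusted p = 2.16e-05). COX2, the other mitochondrial gene on the array by symbol, differed by -0.31 ± 0.10 and did not pass. Of 52 nuclear genes of oxidative phosphorylation 2 rose and 0 fell, with a median of 0.07, and the 2 that rose, Ndufs7 and Ndufa2, did not keep it throughout. Ndufs7 lost the call without high salt and fat arrays 1, 2, 5 or 6 or normal-diet arrays 2, 3, 4, 5 or 6 (0.20 to 0.23), and Ndufa2 without high salt and fat arrays 1, 2, 3 or 5 or normal-diet arrays 1, 2, 3, 4, 5 or 6 (0.22 to 0.28).

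Fat genes were lower, and varied among the normal-diet arrays. Of 11 white adipocyte markers 0 rose and 8 fell (median -1.17), and 5 fell without normal-diet array 2 or without normal-diet array 3. The summed signal of the 14 markers on the array was 1262 to 1642 (median 1369) in the salt and fat kidneys and 1528 to 7079 (median 3401) in the normal-diet kidneys. Car3, a carbonic anhydrase abundant in fat, had 37.0 to 129.7 (median 68.8) in the salt and fat kidneys and 175 to 2232 (median 768) in the normal-diet kidneys (difference -3.44 ± 0.65, adjusted p = 0.00116). Fabp4, the fatty acid carrier of adipocytes, had 18.1 to 80.4 (median 59.9) and 50.2 to 1236 (median 354) in the same groups with overlap (difference -2.58 ± 0.72), a call lost without high salt and fat array 3 or normal-diet arrays 2 or 3 (-2.48 to -2.20). Cfd, the adipose complement factor D, had 14.8 to 46.6 (median 35.6) in the salt and fat kidneys and 33.4 to 317 (median 129) in the normal-diet kidneys (difference -1.87 ± 0.48), and the lipase Lpl had 141 to 204 (median 173) and 157 to 775 (median 431) (difference -1.17 ± 0.29). Lep, leptin, a defining marker, had mean signals of 3.17 in the salt and fat kidneys and 7.17 in the normal-diet kidneys and was too dim to be tested. With the GAPDH ratio as a covariate 1 of the 11 fell.

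Of 21 genes of fatty acid and triglyceride synthesis 0 rose and 4 fell (median -0.10), among them Thrsp, which is also in the adipocyte list. Scd, the desaturase that makes oleate, had signals of 16.8 to 40.4 (median 32.4) in the salt and fat kidneys and 138 to 2328 (median 486) in the normal-diet kidneys, the largest fall of any gene tested (difference -3.93 ± 0.60, adjusted p = 0.000142). Its high salt and fat signals lay below the level needed for testing at both times. Scd thus entered the test through its normal-diet arrays. Thrsp, a lipogenic regulator, had 41.8 to 128 (median 60) and 129 to 802 (median 361) in the same groups (difference -2.23 ± 0.48, adjusted p = 0.0038), and Acaca, acetyl-CoA carboxylase, fell by 0.58. The fat index, the mean standardised signal of Fabp4, Cfd and Car3, had a median of -0.81 in the salt and fat kidneys and 0.85 in the normal-diet kidneys. Fabp4, Cfd and Car3 were chosen from genes that fell in an earlier analysis of these data. The index ran from -1.24 to -0.39 in the salt and fat kidneys and from -0.53 to 1.92 in the normal-diet kidneys. The diets thus hardly overlap in it, and adjusting for it also takes out much of the diet effect. Counts given with it, here and for other lists, therefore cannot separate fat from diet. With the index as a covariate 233 probe sets were called in place of 892. Of the 173 selected genes 51 kept their call, and the fall of Scd remained past the test. How much attached fat each kidney carried is not given in the labels, and its part in the other results was not tested.

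**Figure D4:**
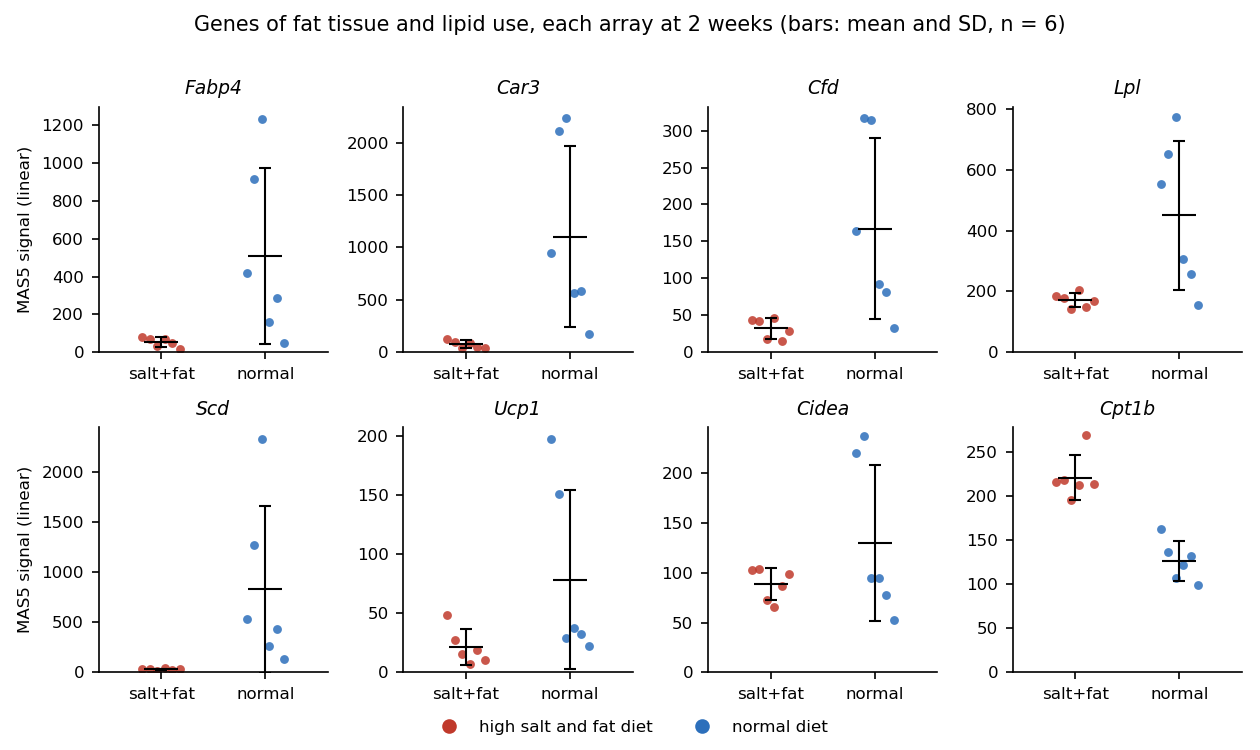
MAS5 signals (linear axes from 0) of 8 genes of adipocytes and lipid use on the 12 arrays at 2 weeks, with the high salt and fat diet left and the normal diet right in each panel, each point an array and each bar the mean with its SD (n = 6). The normal-diet arrays spread widely for Fabp4, Car3, Cfd, Lpl and Scd, and Cpt1b is the only panel of the 8 in which the high salt and fat diet is higher on every array.

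Some markers of injury and matrix rose. Of 25 tubular injury genes 7 rose and 0 fell (median 0.23), against 5.03% and 3.59% of all genes, and 21 of 25 differences were above 0. With the fat index as a covariate 3 of the 25 rose. S100a6, a calcium-binding protein of reactive epithelium, had 371 to 513 (median 459.6) in the salt and fat kidneys and 106 to 267 (median 144) in the normal-diet kidneys, without overlap (difference 1.44 ± 0.20, adjusted p = 4.25e-05). Spp1, osteopontin, had 1771 to 2409.7 (median 2055) and 791 to 1326 (median 1083) in the same groups (difference 0.93 ± 0.17, adjusted p = 0.00097). Cd24, a surface protein of injured and progenitor-like tubule cells, had 862 to 1095 (median 978) in the salt and fat kidneys and 472 to 621 (median 567) in the normal-diet kidneys (difference 0.79 ± 0.10, adjusted p = 8.95e-06). S100a11 and Anxa2 rose by 0.75 ± 0.10 and 0.65 ± 0.14. Krt18 rose by 0.58, a call lost without normal-diet array 1 (0.50), and Vcam1 by 0.42, a call lost without high salt and fat arrays 1, 3, 4 or 5 or normal-diet arrays 1, 2, 3 or 6 (0.35 to 0.42).

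Classical markers of acute damage did not pass. Havcr1, kidney injury molecule 1, had 28.0 to 96.0 (median 52.4) in the salt and fat kidneys and 19.7 to 94.7 (median 33.5) in the normal-diet kidneys (difference 0.40 ± 0.33, adjusted p = 0.515). Lcn2, lipocalin 2, had 45.8 to 98.0 (median 63.5) and 30.1 to 54.5 (median 44.1) in the same groups (difference 0.54 ± 0.22, adjusted p = 0.139). Clu, clusterin, differed by -0.08 ± 0.13. Of 27 fibroblast and matrix genes 3 rose, against 5.03% of all genes. Fn1, fibronectin, had 452 to 707 (median 622) in the salt and fat kidneys and 300.3 to 388 (median 369.8) in the normal-diet kidneys (difference 0.75 ± 0.13, adjusted p = 0.000689), and Col18a1, a basement membrane collagen, had 385 to 540.3 (median 443) and 284 to 328 (median 313) in the same groups (difference 0.53 ± 0.08, adjusted p = 0.000205). Col4a2 rose by 0.32, a call lost without high salt and fat arrays 1, 2, 4 or 5 or normal-diet arrays 1, 2, 4, 5 or 6 (0.25 to 0.34). Of 14 macrophage genes 0 rose and 0 fell in limma, with a median of -0.04 and 3 at an unadjusted p under 0.05.

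The same contrast at 8 weeks was used to test which effects differed with time. The effect of diet at 2 weeks minus that at 8 weeks passed the test for 39 of 10208 probe sets (0.382%), 4 higher (0.0392%) and 35 lower (0.343%), with 1189 at an unadjusted p under 0.05. By gene 4 were higher (0.0534%) and 27 lower (0.36%) at 2 weeks. At 8 weeks itself 933 probe sets had changed (9.14%). The count of 39 was 4 with the GAPDH ratio as a covariate and 0 with the spike-in level in limma (819 at an unadjusted p under 0.05), and 22 without high salt and fat array 3 of 8 weeks.

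Havcr1 differed by 2.88 ± 0.33 at 8 weeks, and the effect at 2 weeks was lower by 2.48 ± 0.47 on the log2 scale (adjusted p = 0.0155). Lcn2, Spp1, Clu and Col1a1 were likewise lower at 2 weeks, with differences between the times of -1.73 ± 0.32, -1.25 ± 0.24, -1.19 ± 0.19 and -1.57 ± 0.28. Of 25 tubular injury genes 18 rose at 8 weeks, against 5.73% of all genes, and the effect differed from that at 2 weeks for 5. Of 14 macrophage genes 6 rose at 8 weeks and 4 were lower at 2 weeks by this test. COX1 fell at 2 weeks and differed by 0.52 ± 0.16 at 8 weeks (difference between the times -1.72 ± 0.23, adjusted p = 0.000306). Slc9a3 ran the other way: it differed by 0.18 ± 0.08 at 2 weeks and -0.50 ± 0.08 at 8 weeks (difference between the times 0.68 ± 0.12, adjusted p = 0.00871).

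For genes of water recovery, osmolytes and the loop the difference between the times did not pass. Aqp4 differed by 1.97 ± 0.16 at 2 weeks and 1.15 ± 0.16 at 8 weeks (difference between the times 0.82 ± 0.23, adjusted p = 0.145). Akr1b1 differed by 1.86 ± 0.22 and 1.46 ± 0.22 (difference between the times 0.40 ± 0.31), Aqp2 by 1.16 ± 0.14 and 0.73 ± 0.14 (0.43 ± 0.19) and Slc12a1 by 0.54 ± 0.11 and 0.39 ± 0.11 (0.15 ± 0.16). Of the proximal genes, Slc4a4 differed by -0.47 ± 0.07 and -0.47 ± 0.07 (-0.0049 ± 0.10) and Hnf4a by -0.74 ± 0.13 and -0.22 ± 0.13 (-0.52 ± 0.18). None of these 6 differences between the times passed, which does not show that the effects were alike.

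**Figure D5:**
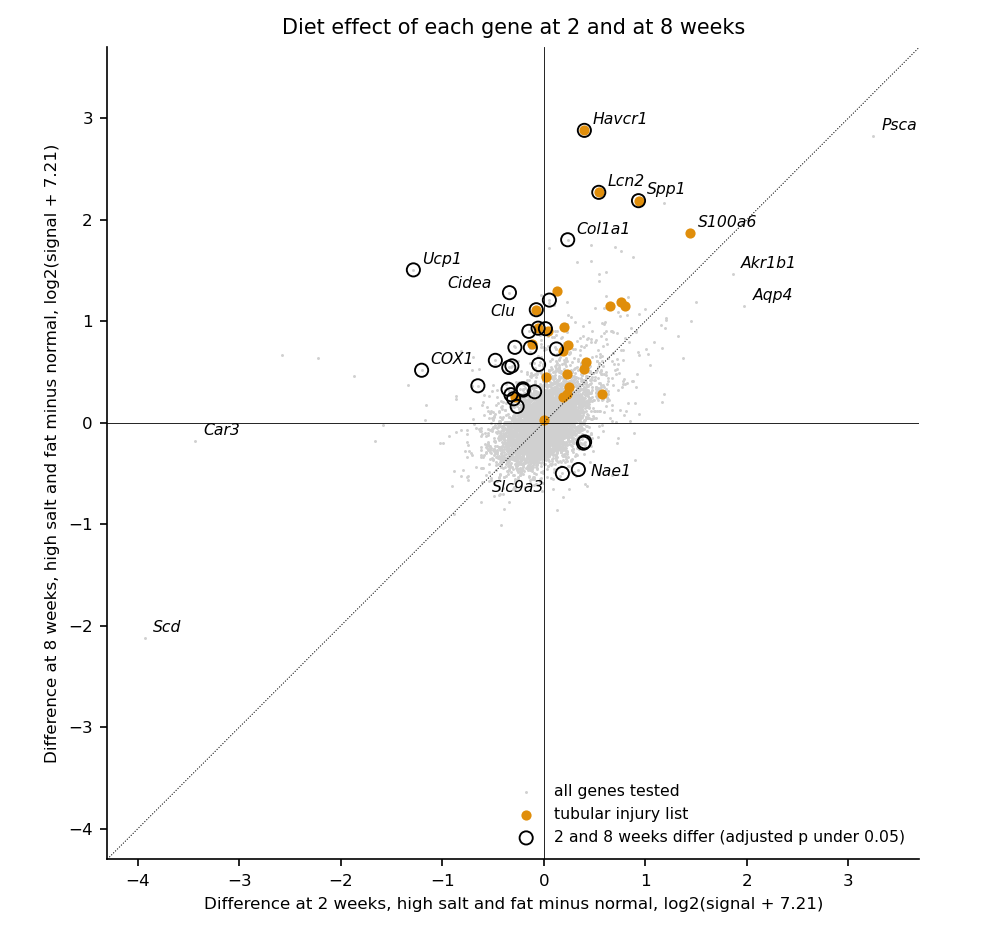
Difference at 2 weeks (horizontal axis) and at 8 weeks (vertical axis), both high salt and fat minus normal on log2(signal + 7.21), for all 7491 genes (grey), the tubular injury list (orange) and the 31 genes whose effects at 2 and 8 weeks differed (circles), with the line of equal effects dotted. Havcr1, Lcn2, Spp1, Clu and Col1a1 lie above the line, and Psca, Akr1b1 and Aqp4 lie to its right.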

How the data were processed

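Labels put 24 kidney arrays into 4 groups of 6, and the 12 arrays of 2 weeks are compared here. The deposited table holds intensity values on a linear scale, made by the authors with MAS5, per the submitters' processing notes. Its version is not given in the sources used here. The 2% trimmed means of the arrays lie between 150.034 and 150.042, so overall levels had been scaled alike. From the 15923 probe sets, 57 controls were removed and 10208 kept whose signal passed the 40th percentile (44.48 to 54.5) on at least 6 arrays. Log2(signal + 7.21), the pseudocount being 0.1 of the median signal, was fitted in limma 3.58.1 (R 4.3.3) over all 24 arrays with 1 mean per group and an intensity trend, and p-values were Benjamini-Hochberg adjusted at 0.05. A gene is read from its brightest probe set among the 12783 with 1 symbol in the platform annotation. Of these 8656 were tested, and the brightest was tested for 7491 genes. Genes were selected as the 15 largest changes each way, called members of segment lists and transporter families, up to 6 called members of each other list, a fixed set of transporters and injury genes, the 8 largest differences between the times each way, and the text describes some of these, with members added for contrast after their values were seen. Members and lists were chosen with earlier results of these data known. On simulated data with 200 of 10208 probe sets changed, the 2-week comparison recovered 66% of log2 changes of 0.5 and 93% of those of 1, and 7% of calls were unchanged probe sets. The simulated noise was independent for each probe set, without the differences in GAPDH ratio and spike-in level between the diets. The 7% is therefore not the share of false calls in the real data. Alternatives were another pseudocount, filters, quantile normalization, centring, array weights, covariates and arrays left out. Replicate numbers were not treated as pairs, because the labels state no pairing. Of 6 same-numbered pairs 1 correlated above 0.1, which cannot exclude a shared litter or batch. Detection calls and scan dates were not used here.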

Additional observations from a re-analysis of the deposited data

Results flagged for a closer look

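In 110 groups of 6 arrays, taken from 52 genes and the quality measures, 11 held an array far from the other 5 by Dixon's criterion. Chance flags about 1 in 20 groups. On the high salt and fat diet, array 2 had a Tmed3 signal of 73.6 (nearest other 57.8), an Acmsd signal of 326.6 (nearest other 509.6) and an actin 3' to 5' ratio of 2.27 (nearest other 1.57). On the same diet, Aqp3 was 459.3 on array 4 (nearest other 517.9) and Aqp1 was 2901 on array 5 (nearest other 3565.7). On the normal diet, Psca was 26.2 on array 2 (nearest other 10.2), Zg16 was 39.6 on array 6 (nearest other 55.9) and Havcr1 was 94.7 on array 4 (nearest other 35.8). Normal-diet array 1 stood apart for Lrp2 at 3228.2, Slc34a1 at 6017.6 and Umod at 5168.

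The effect of diet at 2 weeks minus that at 8 weeks passed limma's test for 31 genes, and only those selected by rule follow. It was lower at 2 weeks for Ucp1 (-2.79), Havcr1 (-2.48), Lcn2 (-1.73), COX1 (-1.72), Cidea (-1.62), Col1a1 (-1.57), Spp1 (-1.25), Clu (-1.19), RT1-Da (-0.89) and B2m (-0.42). It was higher at 2 weeks for Nae1 (0.80), Slc9a3 (0.68), Tmtc1 (0.59) and Gcnt2 (0.59). The call of Ucp1 was lost without high salt and fat array 3 or normal-diet array 2 of 2 weeks, or without high salt and fat array 1 of 8 weeks (-2.75 to -2.52), and that of Tmtc1 without high salt and fat array 3 of 8 weeks (0.55).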

How the results depend on the processing

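At 2 weeks 464 probe sets were higher and 428 lower, 892 in all. With the GAPDH ratio as a covariate there were 173, 141 and 314, with the spike-in level 235, 247 and 482, and with the fat index 123, 110 and 233. Leaving out 1 array at a time gave 319 to 497 higher, 279 to 489 lower (279 without high salt and fat array 2) and 598 to 986 in all. With the replicate block there were 461 higher and 431 lower, 892 in all. At 8 weeks 933 were called, 497 with the spike-in level, 541 without normal-diet arrays 1 and 2, and 543 to 1120 with 1 array left out (543 without high salt and fat array 1 and 579 without array 5). For the difference between the times, 4 higher and 35 lower, centring gave 7 higher and array weights 18 higher and 62 lower, 80 in all. The GAPDH ratio gave 0 higher and 4 lower, the fat index 2 and 11, 13 in all, and leaving out normal-diet arrays 1 and 2 of 8 weeks 8 higher. The spike-in level left 0 higher and 0 lower in limma, with 819 at an unadjusted p under 0.05. Single arrays left out gave 3 to 10 higher, 19 to 45 lower and 22 to 50 in all, the lowest without high salt and fat array 3 of 8 weeks.

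Directions turned for 9 genes. With the fat index, Fabp4 was 0.47 and Cfd 0.13, both of them components of that index, so that these values say nothing about the diet. With it Cidea was 0.29, Slc14a2 0.015 and Nr3c2 0.10. After quantile normalization Aqp1 was 0.028 and Umod 0.22. With the GAPDH ratio Slc12a3 was -0.019 and Clu 0.11, and with the spike-in level Umod was 0.10 and Nr3c2 0.052. With 1 array left out Umod was -0.075 to 0.018, above 0 without high salt and fat array 1, and Nr3c2 was -0.080 to 0.076, above 0 without normal-diet array 3, 4 or 5 or high salt and fat array 1 or 6. Apart from Fabp4 and Cfd, the causes were not tested. Of 173 called genes named by rule, 108 kept the call with each array left out and 39 under all settings run.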
